A study of Mus musculus with 15 samples.

Results

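Steroid hormones reach neurons from the blood and act through receptors that are themselves transcription factors, so a cell responds only where a receptor gene is expressed. Trimethylation of histone H3 at lysine 4 (H3K4me3) marks the nucleosomes around active or poised transcription start sites (TSSs), and the list of WT H3K4me3 peaks in mouse amygdala was read here at 9 steroid and stress hormone receptor genes and genes that act with them. They are the corticosteroid receptors Nr3c1 and Nr3c2, the receptor co-chaperone Fkbp5, the hormone-induced kinase Sgk1, the availability genes Crhbp and Hsd11b1, and the sex steroid receptors Esr1, Esr2 and Pgr. The genes were chosen by name, and every summit within 1 kb of any of their annotated TSSs or inside the gene body was taken. The 9 genes are among the 21938 protein-coding genes of GENCODE version M21, and 8 of them held 20 summits, out of 24139 summits on chromosomes 1 to 19, X and Y.

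The study profiled H3K4me3 in amygdala nuclei of mice with 4 genotypes, in 11 H3K4me3 samples and 4 input samples with 20000 nuclei each. The WT group used here comprised 2 adult males of the 129xB6 F1 generation, compared against 1 WT input, and carried neither the Kmt2a nor the Kdm5c mutation. The Kmt2a-HET, Kdm5c-KO and DM groups, DM being the combination of both mutations, were not analysed here. The authors pooled the WT mice into 1 list, which gives each peak as a summit 1 bp wide with a score. The score is the MACS2 value, read as −log10 of the q-value of enrichment over input, although the file does not name the scale. It rises with read depth as well as with enrichment, it is not a level per unit of length, and the list gives no depth. There is no spread between replicates, so no difference between genes was tested, and each score is set beside the same quantity over all genes. Because the tissue was dissected whole, fewer cells with a mark and less of the mark per cell cannot be told apart.

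Nr3c1 (the glucocorticoid receptor, GR) and Nr3c2 (the mineralocorticoid receptor, MR) bind the same adrenal steroid, corticosterone, with different affinity, and both are abundant in the limbic forebrain. Without hormone they are held in the cytoplasm by HSP90 and its co-chaperones, among them the protein of Fkbp5, which lowers hormone binding and is itself induced by the receptor. Estrogen receptors α and β (Esr1, Esr2) and the progesterone receptor (Pgr) belong to the same superfamily, and Pgr is a textbook target of Esr1 in the hypothalamus and reproductive tract.

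The DNA just upstream of these start sites differed in its content of CpG dinucleotides, the sequence that is concentrated in most mammalian H3K4me3 promoters. The following stretches are shown because they cover that range, with the highest H3K4me3 score within 1 kb given after them. They run 5′ to 3′ along the gene, from the RefSeq promoter table and, for Hsd11b1, from the genome before the start of Hsd11b1-201, all on GRCm38.p6. Bases inside annotated exons were left out, and every CpG is in capitals.
Fkbp5, internal start, chr17:28486150-28486399, minus strand: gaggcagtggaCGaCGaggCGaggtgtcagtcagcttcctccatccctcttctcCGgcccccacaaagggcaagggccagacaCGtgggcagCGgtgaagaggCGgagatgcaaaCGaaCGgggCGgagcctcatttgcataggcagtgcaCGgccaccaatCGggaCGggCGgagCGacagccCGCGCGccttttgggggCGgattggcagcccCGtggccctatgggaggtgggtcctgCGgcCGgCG
Sgk1, most 3′ RefSeq start, chr10:21994416-21994665, plus strand: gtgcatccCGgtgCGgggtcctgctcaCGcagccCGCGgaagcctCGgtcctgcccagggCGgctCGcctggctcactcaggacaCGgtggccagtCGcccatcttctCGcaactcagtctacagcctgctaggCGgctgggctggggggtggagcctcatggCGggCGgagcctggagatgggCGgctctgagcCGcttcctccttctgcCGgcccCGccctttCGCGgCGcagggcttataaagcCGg
Nr3c2, chr8:76902080-76902287, plus strand: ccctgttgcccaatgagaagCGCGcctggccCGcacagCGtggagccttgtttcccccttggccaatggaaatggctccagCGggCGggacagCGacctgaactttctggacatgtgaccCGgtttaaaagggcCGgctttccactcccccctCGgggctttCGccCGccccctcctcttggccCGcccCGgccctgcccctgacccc
Esr2, chr12:76177260-76177509, minus strand: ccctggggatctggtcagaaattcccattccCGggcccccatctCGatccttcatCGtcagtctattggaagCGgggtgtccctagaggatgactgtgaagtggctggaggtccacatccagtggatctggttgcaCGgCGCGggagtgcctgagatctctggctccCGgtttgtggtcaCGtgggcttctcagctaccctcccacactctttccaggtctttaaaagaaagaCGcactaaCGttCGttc
Crhbp, chr13:95444925-95445081, minus strand: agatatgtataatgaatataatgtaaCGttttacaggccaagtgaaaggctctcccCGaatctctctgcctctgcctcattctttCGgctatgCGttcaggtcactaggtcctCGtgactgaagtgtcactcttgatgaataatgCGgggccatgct
Pgr, chr9:8899583-8899832, plus strand: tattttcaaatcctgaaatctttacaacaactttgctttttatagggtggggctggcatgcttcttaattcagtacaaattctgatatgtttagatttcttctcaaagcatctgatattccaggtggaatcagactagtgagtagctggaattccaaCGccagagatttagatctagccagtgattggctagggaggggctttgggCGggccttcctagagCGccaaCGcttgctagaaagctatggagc
Hsd11b1, chr1:193242630-193242879, minus strand: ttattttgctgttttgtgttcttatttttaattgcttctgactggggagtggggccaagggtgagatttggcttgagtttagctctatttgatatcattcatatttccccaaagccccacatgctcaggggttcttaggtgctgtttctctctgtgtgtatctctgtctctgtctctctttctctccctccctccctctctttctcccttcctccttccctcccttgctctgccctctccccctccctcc
The Fkbp5 stretch held 23 CpGs in 250 bases and its start had a score of 133.1. The Sgk1 stretch held 22 in 250 bases, with a score of 186.0. The Nr3c2 stretch held 14 in 208 bases, with the highest start-site score of the 9 genes, 219.2. The Esr2 stretch held 12 in 250 bases with a score of 29.2, and the Crhbp stretch 6 in 157 bases with a score of 43.6. The Pgr stretch held 4 in 250 bases and the Hsd11b1 stretch 0 in 250 bases, and neither start had a summit within 1 kb. An upstream stretch poor in CpG did not always precede an unmarked start. The one before the outermost Sgk1 start, not printed here, held 2 in 250 bases, and that start had a score of 209.6. This start was not poor in CpG when both sides were counted. Over 500 bp on either side, its ratio of observed to expected CpG was 0.51. That was higher than at 72.2% of the groups of neighbouring starts of protein-coding genes. The number of CpGs in the upstream stretch and the score therefore did not follow the same order among the marked starts.

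The corticosteroid receptors each carried a strong summit, and in both genes it lay at an internal start and not at the outermost one. Nr3c2 (ENSMUSG00000031618, chromosome 8, 76899442 to 77245012 on the plus strand) had a single summit in 345571 bp, at 76902473, scoring 219.2. This lay above 82.6% of all summits and above 67.1% of the highest TSS scores of protein-coding genes. The summit lay 3 bp upstream of the start of Nr3c2-202 and in exon 1, within the UTR, of 3 other transcripts. It was 3031 bp from the outermost start. Of the 4 groups of starts in Nr3c2, each joining TSSs within 1 kb of the next, only this group was marked, meaning that it had a summit within 1 kb. Among 338 protein-coding genes of similar length (from 0.8 times its own to the inverse of that factor), 95.3% had as many summits or more.

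Nr3c1 (ENSMUSG00000024431, chromosome 18, 39410545 to 39519421 on the minus strand) had 3 summits. The outermost start, used by Nr3c1-209 alone, had a summit at 39519196 scoring 4.26, above 5.18% of all summits. The internal group of starts, used by 6 transcripts, had a summit at 39491449 with a score of 180.9, 148 bp upstream of Nr3c1-205. Both summits lay within 1 kb of a start, with the higher score at the start that more transcripts share. The most 3′ group of starts, used by Nr3c1-202 and Nr3c1-204, was not marked by this rule. A further summit at 39485395, with a score of 121.0, lay in an intron 1837 bp downstream of Nr3c1-202. The highest TSS score of Nr3c1 was higher than 42.1% of those of protein-coding genes, so it stood in the middle of that distribution and below Nr3c2.

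**Figure D1:**
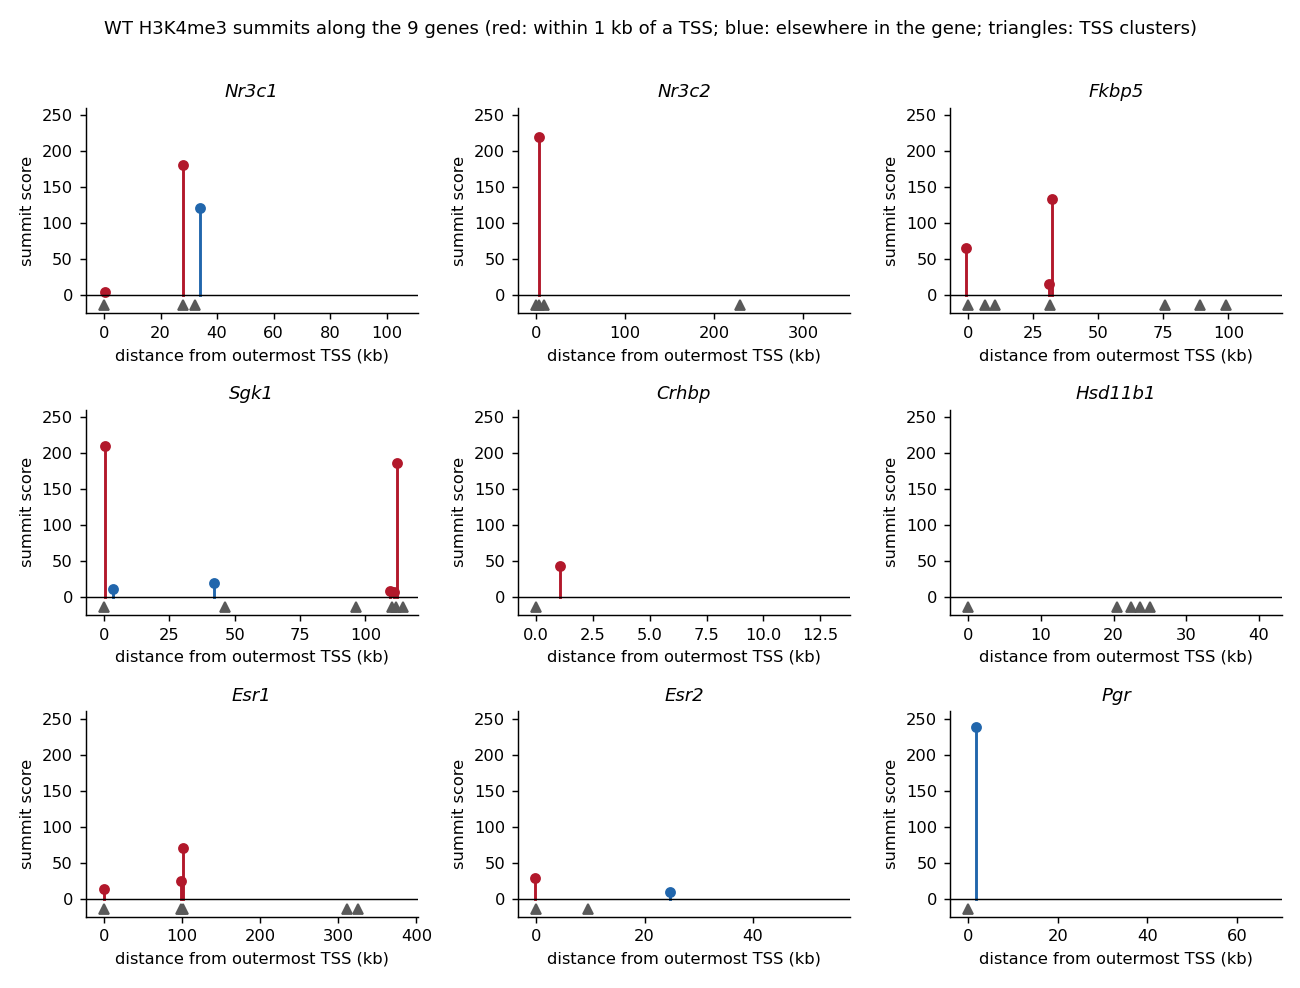
Score of each WT H3K4me3 summit (vertical axis) against its distance in kb from the outermost TSS (horizontal axis, scaled to each gene), with red for summits within 1 kb of a TSS, blue for other summits in the gene and triangles for groups of TSSs. Single high summits are seen at Nr3c2 (219.2) and Pgr (237.8), high summits near both ends at Sgk1 (209.6 and 186.0), and none at Hsd11b1.

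Fkbp5 and Sgk1, a pair of genes induced by glucocorticoids in many tissues, each had several marked starts. Sgk1 encodes a kinase that regulates ion channels and transporters. Sgk1 (ENSMUSG00000019970, chromosome 10, 21882184 to 21999903 on the plus strand) had 6 summits, the most of the 9 genes. As many or more were found in 0.857% of protein-coding genes and in 1.74% of the 1151 of similar length. The outermost start had a summit at 21882673 with a score of 209.6, in exon 1 and within the coding sequence of Sgk1-204, the transcript whose introns hold the other 5 summits. The start of the short transcript Sgk1-201, over 100 kb further 3′, had a summit at 21994364 with a score of 186.0, 302 bp upstream of it. These were higher than 78.2% and 69.4% of the list. The other 4 summits were weak, with scores of 11.1 and 20.03 in the intron after the outermost exon and of 8.07 and 7.12 on either side of the start of Sgk1-203 and Sgk1-212. The gene thus had a pair of strong summits near its ends and low scores between them, and 3 of its 6 groups of starts were marked.

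The summit of the short Sgk1 transcripts lay beside the only full hormone response element found in the 14 promoters of these genes that were searched. This element is the inverted repeat to which the glucocorticoid, mineralocorticoid and progesterone receptors bind as dimers. It was searched as AGAACA and TGTTCT separated by any 3 bases. The stretch around it is shown with the element in capitals, from the RefSeq table on GRCm38.p6.
Sgk1, chr10:21993671-21993745, plus strand: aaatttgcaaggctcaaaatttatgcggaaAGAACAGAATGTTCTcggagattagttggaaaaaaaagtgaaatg
The element starts 189 bp upstream of the RefSeq start at 21993890, 965 bp upstream of the start of Sgk1-201, and 663 bp from the summit with the score of 186.0. Over the 32851 RefSeq promoters of 300 bases (250 before the start and 50 after), 3 promoters or 0.00913% held it, against 1 of the 14 promoters that the table gives for 8 of the 9 genes. The other two were those of Acnat2 and Gm35041, named after their match was seen. The single site, AGAACA or TGTTCT on either strand and including those inside the full element, was in 19.0% of all promoters and in 3 of the 14, all 3 at Sgk1. These shares were close to each other. Sgk1 also gives more of the 14 promoters than any other gene, so a restriction to Sgk1 was not tested. The Hsd11b1 stretch printed above, taken from the genome and not among the 14, also holds TGTTCT. With 1 kb on either side of the start the site was in 76.7% of all promoters and in 11 of the 14, no longer at Sgk1 alone. The full estrogen response element, GGTCA and TGACC separated by any 3 bases, was in 0.0700% of all promoters and in 0 of the 14. The cAMP response element, TGACGTCA, was in 1.79% of all and in 0 of the 14. The TATA box, TATAAA on either strand, was in 13.6% of all promoters and in 4 of the 14. Its first base lay 11 bp before the start at 21994666 and 28 bp before that at 21992223 in Sgk1, 212 bp before the start in Pgr on the opposite strand, and 30 bp after that in Crhbp. These are matches of letters, and binding was not measured here. Nr3c1 was not among the promoters of the table.

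Fkbp5 (ENSMUSG00000024222, chromosome 17, 28399094 to 28517527 on the minus strand) had 3 summits, all within 1 kb of a start. The highest, at 28485506, scored 133.1 and lay in an intron 587 bp downstream of the start of Fkbp5-214. A weaker summit at 28486393, with a score of 16.1, lay 244 bp upstream of Fkbp5-201, and both belong to the CpG-rich internal start printed above. The outermost start had a summit at 28518404, 877 bp upstream of the gene, with a score of 65.2. As in the corticosteroid receptors, the higher score lay inside the gene, here 32021 bp from the outermost start. Of the 7 groups of starts, 2 were marked. The highest score was higher than 55.7% of the list but than only 25.7% of the highest TSS scores of protein-coding genes.

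The genes that set how much peptide or steroid is available had weak summits or none. Crhbp encodes a secreted protein that binds corticotropin-releasing hormone (CRH) and limits its access to receptors. Crhbp (ENSMUSG00000021680, chromosome 13, 95431371 to 95444924 on the minus strand) had 1 summit, at 95443877 in coding exon 3, with a score of 43.6. It lay 954 bp downstream of Crhbp-201, just inside the 1 kb limit, and was higher than 38.0% of the list and 10.6% of the highest TSS scores of protein-coding genes. Hsd11b1 encodes the dehydrogenase that regenerates active corticosterone from its inert form inside cells. Hsd11b1 (ENSMUSG00000016194, chromosome 1, 193221634 to 193264075 on the minus strand) had no summit at any of its 7 transcripts. The nearest lay 8411 bp upstream of the gene at 193272486, with a score of 116.4, and was 731 bp downstream of a start of G0s2. Of 2231 protein-coding genes of similar length, 18.1% also had none. With a pooled list this says that no peak passed the authors' filter, not that the mark was absent.

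The sex steroid receptors differed widely in score, with Pgr at the top of the 9 genes and the estrogen receptors near the bottom. Pgr (ENSMUSG00000031870, chromosome 9, 8899833 to 8968611 on the plus strand) had a single summit at 8901505 scoring 237.8, above 89.7% of all summits. It lay in coding exon 1, 1037 bp downstream of the nearest start and 1672 bp from the outermost, so just outside 1 kb, and Pgr counted as having no TSS summit. A summit at or above the list median of 102.3 inside a gene with no TSS summit was found in 266 protein-coding genes, 1.21%, and among the 9 genes in Pgr alone. The 151 bases centred on the summit are all coding and held 11 CpGs, shown in capitals. The 250 bases printed above held 4, but they precede the outermost start, used by Pgr-204 alone. Counts before the starts of Pgr-203 at 8900419 and of Pgr-201 and Pgr-202 at 8900468, nearer the summit, are not given. The bases are shown because the summit lay in them and not at a start.
Pgr summit, chr9:8901430-8901580, plus strand: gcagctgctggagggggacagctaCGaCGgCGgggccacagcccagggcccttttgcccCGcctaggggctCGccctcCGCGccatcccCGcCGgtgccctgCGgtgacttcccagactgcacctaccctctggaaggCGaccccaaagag
The observed over expected CpG ratio, which is 1 when CpGs are as frequent as the content of C and G alone would give, was 0.58 in these bases and 0.43 in the RefSeq promoter of 300 bases.

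Esr1 (ENSMUSG00000019768, chromosome 10, 4611593 to 5005614 on the plus strand) had 3 summits, each within 51 bp of a start. The outermost group of starts had a summit at 4612062 with a score of 13.2, 41 bp downstream of Esr1-201. The start of Esr1-202 and Esr1-203 had a summit at 4710172 with a score of 24.96, 17 bp downstream. The highest, at 4712600 with a score of 70.2, lay 51 bp upstream of Esr1-205, a transcript with no coding sequence, and within a coding exon of 4 other transcripts. The scores thus rose from the outermost start inwards, and the highest was higher than 14.8% of the highest TSS scores of protein-coding genes. Esr2 (ENSMUSG00000021055, chromosome 12, 76120419 to 76177259 on the minus strand) had a summit at 76177394 with a score of 29.2, 135 bp upstream of the start that 4 of its 5 transcripts share. A weaker one at 76152566, with a score of 10.1, lay in an intron 61 bp from the start of the processed pseudogene Gm7862 and 15149 bp from any start of Esr2, so it cannot be assigned to Esr2. The TSS score of Esr2 was the lowest of the 7 genes that had one, and higher than 8.09% of those of protein-coding genes.

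Any summit, near a start or in the gene body, was found at 8 of 9 genes, against 67.6% of protein-coding genes. A TSS summit was present at 7 of 9, against 64.7% (95% Wilson interval 64.1% to 65.3%, counting error only), and a TSS summit at or above the list median at 4 of 9, against 52.0%. These shares were near the background. In order of the highest TSS score, the genes were Nr3c2 (219.2), Sgk1 (209.6), Nr3c1 (180.9), Fkbp5 (133.1), Esr1 (70.2), Crhbp (43.6) and Esr2 (29.2). Without replicates, it cannot be said which neighbours in this order differ. The median of the 7 was 133.1, against 194.6 over the 14197 protein-coding genes with a TSS summit, whose quartiles were 129.8 and 230.2. Of the 20 summits, 7 scored below 20, 6 between 20 and 100 and 7 above 100, and their median was 36.4, against 102.3 over the whole list.

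**Figure D2:**
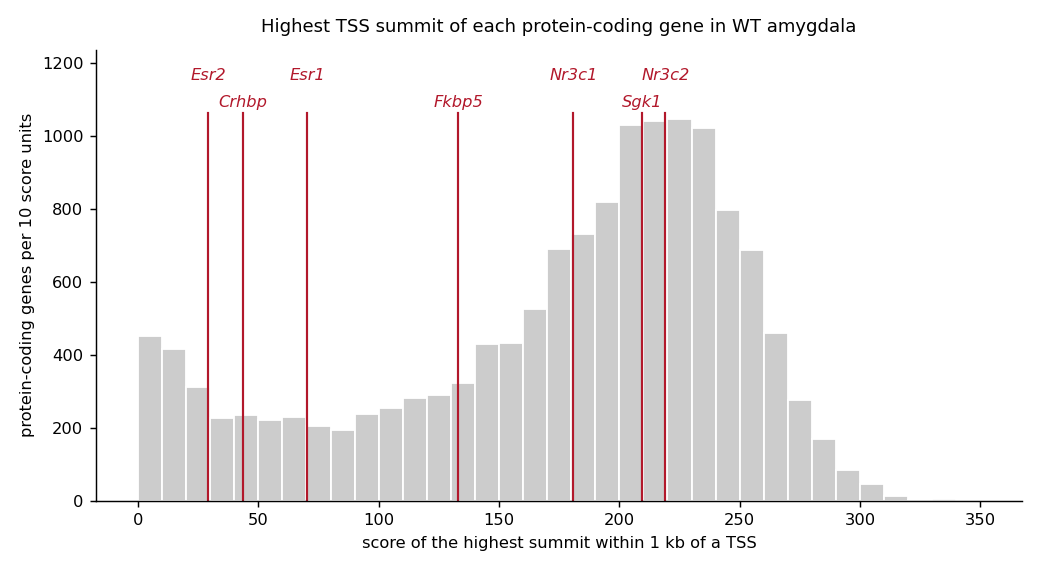
Number of protein-coding genes (vertical axis) by the score of their highest WT H3K4me3 summit within 1 kb of a TSS (horizontal axis, steps of 10), with red lines at the 7 of the 9 genes that have one. Esr2, Crhbp and Esr1 lie in the low tail, Fkbp5 just above the lower quartile of 129.8, and Nr3c1, Sgk1 and Nr3c2 in the main mass between 180.9 and 219.2.

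Several of the genes were marked at more than 1 place. Of the 9 genes, 4 (Nr3c1, Fkbp5, Sgk1 and Esr1) had 3 or more summits, against 6.92% of protein-coding genes, and the same 4 had 2 or more marked groups of starts, against 8.17%. All 4 are long genes, and among genes of similar length 3 or more summits were found in 16.3% for Nr3c1, 17.6% for Fkbp5 and 38.3% for Esr1. For Sgk1, the 6 summits it had were reached or exceeded in 1.74% of genes of similar length. Having 3 or more summits was thus more frequent among genes of these lengths than among all protein-coding genes. The count did not follow length within the 9 genes, since Nr3c2, with 345571 bp, had 1 summit. The part of length was not tested. The number of groups of starts that could be marked was 3 in Nr3c1, 7 in Fkbp5, 6 in Sgk1 and 5 in Esr1. Nr3c2 had 4 and Hsd11b1 had 5, with 1 and 0 marked. The share of 8.17% was not taken over genes with as many groups. Counted over groups of starts, 13 of 34 were marked, against 33.7% of 48607, so the marking per group was near the background. Of the 20 summits, 15 lay within 1 kb of a start, at a median of 244 bp and between 3 and 954 bp. Of these 15, 7 lay downstream of the nearest start of their gene, whereas 78.9% of all summits within 1 kb of any start lay downstream of it.

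The marked starts were mostly those richer in CpG, measured as the observed over expected ratio in 500 bp on either side. Below a ratio of 0.3, 0 of 14 groups of starts were marked, against 5.56% of 25820 over all protein-coding genes. These include 4 of the 5 groups of Hsd11b1. Between 0.3 and 0.6, 9 of 15 were marked, against 37.5%. The scores of these 9 ran from 4.26 at the outermost start of Nr3c1 to 219.2 at Nr3c2, with a median of 29.2, against 141.9 over all marked groups of that range. At 0.6 and above, 4 of 5 were marked, against 93.5%, with scores from 70.2 to 186.0 and a median of 157.0, against 202.1. The exception was the outermost group of starts of Nr3c2, whose ratio of 0.73 was higher than 84.6% of all groups and which had no summit within 1 kb. The CpG-richest was the internal start of Fkbp5, with a ratio of 1.01, higher than 99.2% of all groups, and a score of 133.1. The Esr1 start with a ratio of 0.74 had a score of 70.2.

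**Figure D3:**
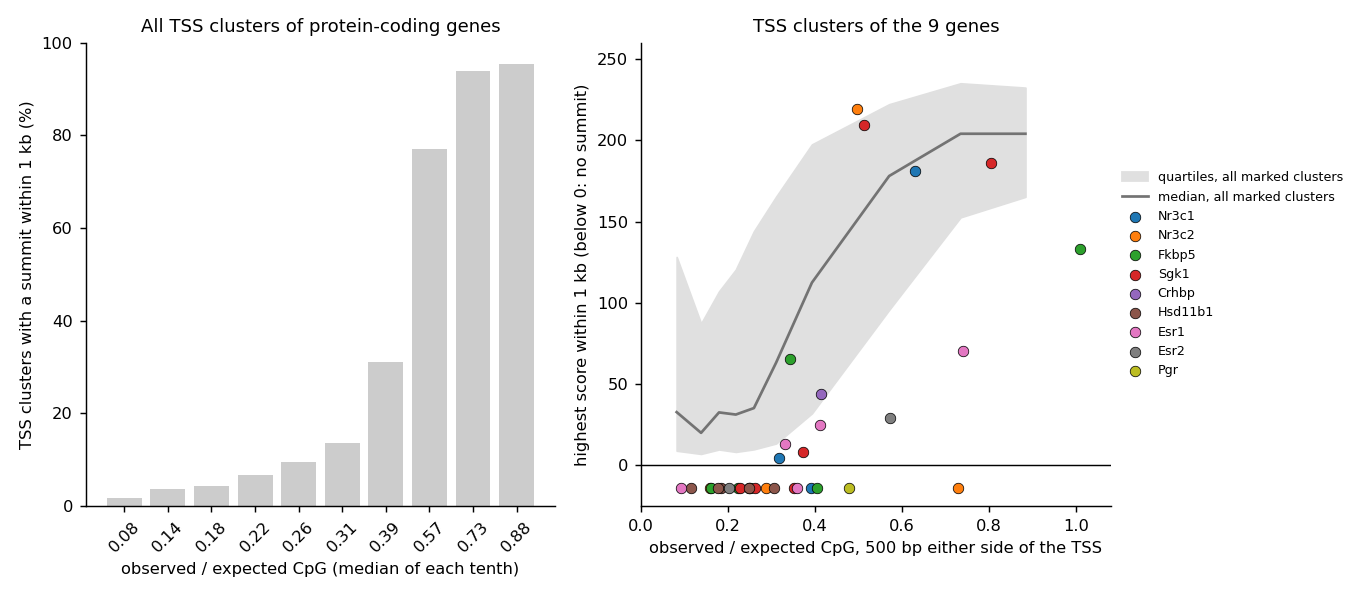
Left, percent of all groups of TSSs of protein-coding genes with a summit within 1 kb (vertical axis) in 10 groups of rising observed over expected CpG ratio (horizontal axis, median of each of 10 equal groups). Right, highest score within 1 kb (vertical axis, points below 0 having no summit) against the ratio of each of the 34 groups of the 9 genes, over the median (line) and quartiles (band) of all marked groups. No group with a ratio under 0.3 is marked. The outermost Nr3c1 group (4.26), an Sgk1 group (8.07), all 3 marked Esr1 groups (13.2, 24.96 and 70.2) and the Esr2 group (29.2) lie below the band. The Nr3c2 group (219.2) lies just above the band, and the Fkbp5 group (133.1) lies at the right end beyond it.

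Among 48 nuclear receptors, the 5 receptors of the 9 genes and 43 others, 40 had a TSS summit. Nr3c2 ranked 8 by its score, next to Thra (219.0), and Nr3c1 ranked 15, while Esr1 ranked 31 and Esr2 ranked 35. The highest of the others were Nr1d1 (322.5) and Nr1h3 (236.9), and the lowest Nr5a1 (7.71) and Nr5a2 (6.43). The others had a TSS summit in 36 of 43, with a median of 158.9, and Nr1h4, Nr1i2 and Nr1i3 had none. A list of 7 further steroid receptors and relatives, some of which are also in the larger list, had a TSS summit in 6, with a median of 117.8. The membrane progesterone-binding proteins Pgrmc2 (209.7) and Pgrmc1 (189.1) were highest, and Esrrg (58.0) and the membrane estrogen receptor Gper1 (16.3) lowest.

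Nearly all genes of the machinery that the receptors share were marked. The chaperones that hold them had a TSS summit in 11 of 11 genes, with a median of 234.2, from Hsp90aa1 (183.5) and Stip1 (200.2) to Hspa8 (249.5) and Ppid (268.8). The coregulators had one in 9 of 11, with a median of 203.4. The corepressor Ncor1 scored 255.7, and Carm1 (187.2) and Ncoa3 (147.2) were lowest. Ncoa1 and Ppargc1a had none within 1 kb but summits of 211.5 and 192.8 at 1053 and 1174 bp downstream of a start. Other genes known to be induced by glucocorticoids had one in 14 of 15, with a median of 167.1. The clock gene Per1 (249.5) and Ddit4 (246.4) were highest, and Mt2 (100.1) and Cdkn1a (90.2) lowest. In that list Klf9 alone had none, with a summit of 241.9 at 1057 bp downstream.

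Fewer genes had a TSS summit in the lists of steroid enzymes and of the stress axis. Genes of steroid synthesis and metabolism had a TSS summit in 7 of 17, with a median of 173.9 among those 7. Hsd17b4 (272.6) and Srd5a3 (211.5) were highest and Hsd17b10 (97.4) and Tspo (41.9) lowest. Hsd11b2, which inactivates corticosterone, and Cyp19a1, the aromatase that makes estradiol, had none, nor did Srd5a2. Genes of the CRH and pituitary-adrenal axis had one in 5 of 14, with a median of 50.7. The CRH receptors Crhr1 (160.8) and Crhr2 (65.5) were highest, and Oxtr (37.6) and Ucn (25.6) lowest. Crh had a summit of 49.2 at 1112 bp downstream of its start, Pomc had one of 190.6 at 5216 bp downstream, and Ucn2 and Ucn3 had none. Crhbp, with 43.6, lay within the range of its partners in this list. Across all these lists, 64.7% of protein-coding genes is the background for the share with a TSS summit.

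**Figure D4:**
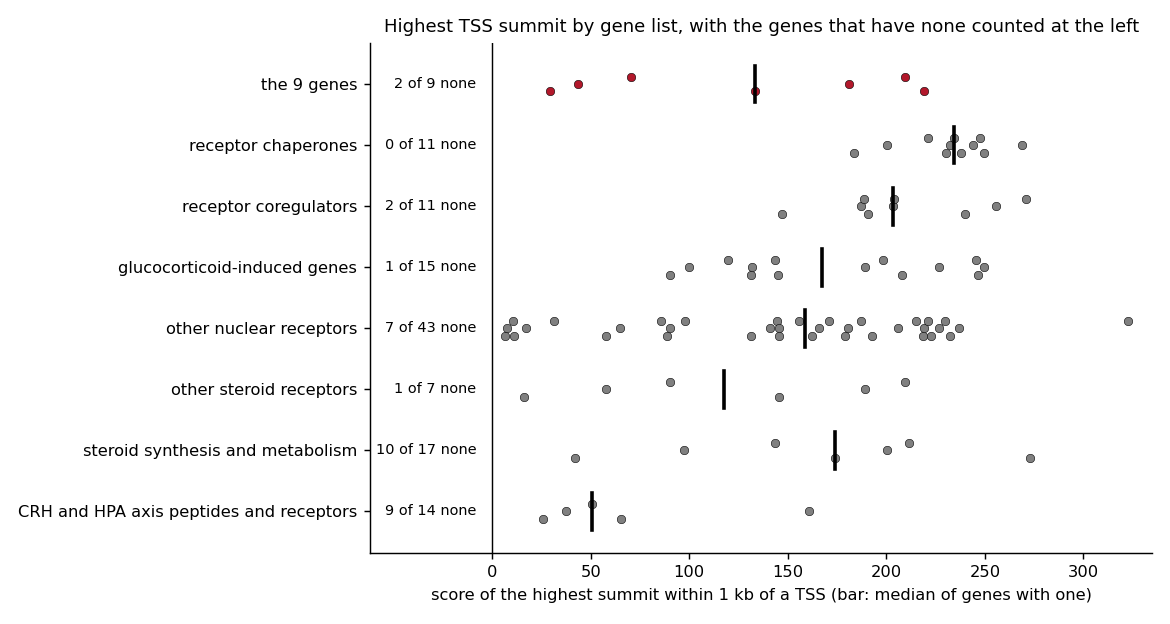
Score of the highest summit within 1 kb of a TSS (horizontal axis) for each gene of the 9 (red) and of 7 related lists (grey), with the median of genes that have one as a black bar and the number with none at the left. The chaperones lie between 183.5 and 268.8 with none missing, while 9 of 14 genes of the CRH and pituitary-adrenal axis have none.

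Markers of the cell types in the tissue were read in the same way. Neuron markers had a TSS summit in 10 of 10 genes (104.8 to 284.3), astrocyte markers in 6 of 6 (29.2 to 188.4), oligodendrocyte markers in 5 of 6 (81.1 to 182.9) and endothelial markers in 6 of 6 (15.5 to 75.4). Markers of tissues outside the brain had one in 1 of 10, with a score of 9.05. The TSS scores of Esr1, Esr2 and Crhbp fell within the range of the endothelial markers, and also of the astrocyte markers. Those of Nr3c1 and Fkbp5 fell within the ranges of the neuron, astrocyte and oligodendrocyte markers, and those of Nr3c2 and Sgk1 within the range of the neuron markers. The part of each cell type in these scores was not tested.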

How the data were processed

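Nucleosomes carrying H3K4me3 were precipitated from adult male amygdala, and only the WT peak list was analysed here. By the study's methods, the authors mapped reads to mm10 with Bowtie, discarded reads with several matches and ran MACS2 2.1.0.20140616 against input with a q-value filter of 0.1. The deposited list gives 1 score per summit for both WT mice together, taken as −log10 q. Scores take shared values at many summits, so ties occur, and depth cannot be recovered. Unmatched per-sample columns numbered 0.

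Positions were matched to GENCODE version M21 on GRCm38. All 21 chromosomes were in both, and 0 summits lay beyond a chromosome end. A TSS summit lay within 1 kb of any annotated TSS, and TSSs within 1 kb of each other were joined into groups. Promoters were those of the RefSeq table. Of 157 list entries, 1 (Sts) had no match and was left out. Genes named are the 9, the 2 highest and the 2 lowest of each list and up to 3 with no TSS summit, in list order, except that some of these are not reported here. Single genes that fall outside this rule, in comparisons with a neighbouring rank or summit position, were chosen after their values were seen. Of the marker lists, only counts and ranges are given. The 9 genes and the lists were chosen with earlier results of these data known. No p-value is given, because genes of 1 pooled list are not replicates. The assignment of summits to genes and starts was tested on simulated data. The joining of summits, the grouping of starts and the CpG ratio were checked on fixed examples. The motif search was not among these checks. Alternatives were the window, the score threshold, the starts used, the joining of summits, the CpG window and the motif window. Computations used Python 3.11.15, numpy 2.4.6, scipy 1.17.1, pysam 0.24.0, samtools 1.23.1 and matplotlib 3.10.9.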

Additional observations from a re-analysis of the deposited data

How the results depend on the processing

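Of the alternative values, 132 were labelled as within the limits set for them and 31 as moved. The limits are not given here, and the labels did not follow the size of the change. With CpG measured over 250 bp, the percent of groups with a lower ratio went from 37.6 to 19.4 at the start of Sgk1-205. That value was labelled as within its limits. At the most 3′ start of Sgk1 the percent went from 45.8 to 50.3 and was labelled as moved. The 132 is therefore not a count of values that hardly changed. No paired analysis was possible because the WT peak list used here pools both mice, and for the same reason no mouse could be left out. Keeping summits at or above the list median left 7 summits at the 9 genes and 4 genes with a TSS summit (52.0% of protein-coding genes), so that Crhbp, Esr1 and Esr2 lost theirs. It also left 3 further steroid receptors, 1 gene of the CRH axis, 3 oligodendrocyte, 2 astrocyte and 0 endothelial markers and 0 markers from outside the brain. A minimum score of 10 gave 62.7% of protein-coding genes and 0 outside markers. With 500 bp, the share was 57.1%, Crhbp lost its TSS summit, Fkbp5 fell to 16.1, and the CRH axis had 3 genes and the outside markers 0. With 3 kb, the share was 67.1%, Pgr gained its 237.8 and the outside markers reached 4. With starts of coding transcripts only, the share was 63.5% and Esr1 had 24.96. With the outermost start only, the share was 58.2%, Nr3c1 fell to 4.26, Fkbp5 to 65.2 and Esr1 to 13.2, and Nr3c2 and Crhbp had none. With CpG measured over 250 bp, the percent of groups lower was 36.7 for the most 3′ start of Esr1, 49.7 for the start of Sgk1-203 and 50.3 for the most 3′ start of Sgk1. Within 1 kb of either side of the start, 61.7% of promoters held a TATA box, 76.7% the single hormone site, 3.44% the cAMP element, 0.323% the full estrogen element and 0.0365% the full hormone element, against 13, 11, 0, 0 and 2 of the 14 promoters given for 8 of the 9 genes. The 2 promoters with the full hormone element were those of Sgk1 with starts at 21993890 and 21994666. Both windows hold the same element, 189 bp and 965 bp before these starts. The list gives no depth, so its effect on weak summits was not tested.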

Other observations

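The surroundings of the genes differed in how many other summits they held within 100 kb. Nr3c1, Nr3c2, Esr1 and Pgr had 0 outside the gene on either side, so that their own summits stood alone within that distance. The same count was not made over all protein-coding genes, so whether this is unusual was not tested. Fkbp5 had 7, Hsd11b1 6, Crhbp 3, Esr2 3 and Sgk1 1.

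The nearest to Fkbp5 lay 5399 bp upstream at 28522926 on chromosome 17, with a score of 147.9, 206 bp inside the lincRNA E230001N04Rik, and was higher than the summit of 65.2 at the outermost start of Fkbp5. Upstream of Esr2, a weak summit of 9.38 at 76196107 on chromosome 12 lay 18848 bp from the gene, with no annotated start nearer than that of Esr2. Downstream of Sgk1, a summit of 158.0 at 22058470 on chromosome 10 lay 58567 bp past the end of the gene and 6219 bp from the nearest start, that of the processed pseudogene Gm18637. At Hsd11b1, the strong summits on the downstream side belonged to the starts of A130010J15Rik (247.6) and Diexf (205.9), and that of Traf3ip3 had 3.74. These positions were chosen after their values were seen.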
